A study of Mus musculus with 6 samples.

Results

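The genes described here encode the nuclear-encoded subunits of the mitochondrial respiratory chain and of ATP synthase, with 2 families of their assembly factors. They were chosen by name alone, as every gene whose symbol begins with Nduf, Uqc, Cox4 to Cox8 or Atp5, together with Sdha to Sdhd and Cyc1, without the 9 entries marked as pseudogenes by -ps in the name. This gave 102 of the 55536 entries of the deposited table: 41 of complex I, 4 of complex II, 9 of complex III, 19 of complex IV, 18 of complex V, 8 Ndufaf assembly factors of complex I and 3 Uqcc assembly factors of complex III. Of these, 98 are annotated as protein coding, 6 had no count in any library, and 94 had enough counts to be tested. The 102 entries carry 101 distinct names, since Atp5o stands for 2 entries, the smaller of which had no count. Ndufa4 and Ndufa4l2 stand with complex I by name, although the Ndufa4 protein is now regarded as a subunit of complex IV. Atp5s stands with complex V by name, although it is not regarded as a subunit of that complex.

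RNA was sequenced in 3 Sirt5-/- and 3 Sirt5+/+ liver samples of male C57BL/6 mice. All 6 livers, of both genotypes, came from mice injected hydrodynamically at 4 weeks of age with 50 µg of the piggyBac plasmid PB[CMV-myc-YAP5SA]DS, which encodes a myc-tagged YAP5SA behind a CMV promoter, and with 10 µg of the transposase plasmid Act-PBase, and the livers were taken 20 days later. The protocol gives the red fluorescent plasmid PB[Act-RFP]DS as the alternative to the YAP5SA plasmid, and the treatment label of each of the 6 samples names YAP5SA. YAP5SA is an activated form of the transcriptional coactivator YAP, hydrodynamic delivery reaches only some of the hepatocytes, and no uninjected liver was among the samples, so the comparison is of genotypes within YAP5SA-injected livers. Whether each library came from its own animal is not said in the labels; p-values therefore reflect only how far these libraries differ, which may be technical.

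In the inner mitochondrial membrane, complex I takes electrons from NADH and complex II takes them from succinate. Coenzyme Q carries them to complex III and cytochrome c to complex IV, which reduces oxygen. Complexes I, III and IV pump protons, and complex V uses the gradient to make ATP. Complex II is wholly nuclear-encoded and is also an enzyme of the tricarboxylic acid cycle, whereas the other complexes join nuclear-encoded subunits to subunits made from mitochondrial DNA. Hepatocytes are rich in mitochondria, and SIRT5, the protein absent from the knockout, is a mainly mitochondrial enzyme that removes succinyl, malonyl and glutaryl groups from lysines.

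Sirt5 itself had 13.8, 44.6 and 18 counts in the Sirt5-/- libraries, against 352, 441 and 95.7 counts in the Sirt5+/+ libraries (log2 fold change -4.13 ± 0.38 SE, adjusted p = 0.00146, edgeR). Library totals ran from 19307808 to 24330797 counts. Mitochondrially encoded genes took 40.8, 21.5 and 17.5% of the counts in Sirt5-/- libraries, against 7.2, 6.58 and 46.4% in Sirt5+/+ libraries, so Sirt5-/- replicate 1 and Sirt5+/+ replicate 3 stand apart from the others of their genotype. The 102 genes together took 0.49, 0.81 and 0.86% of counts in Sirt5-/- libraries, against 1.29, 1.15 and 0.41% in Sirt5+/+ libraries. Levels below are counts scaled to the library's size (CPM) with trimmed-mean (TMM) factors, and do not correct for gene length. Of 20 hepatocyte markers listed, 19 were found by name in the data. Their summed level was 50900, 36200 and 26300 CPM in Sirt5-/- livers, against 151000, 113000 and 116000 CPM in Sirt5+/+ livers. All 19 could be tested and 14 were lower, while over all genes tested 17.1% were lower and 17.4% higher. Over 10 leukocyte markers the sums were 1020, 1690 and 2020 CPM in Sirt5-/- livers, against 316, 369 and 313 CPM in Sirt5+/+ livers. Over 7 bile duct markers they were 751, 830 and 796 CPM in Sirt5-/- livers, against 90.4, 147 and 402 CPM in Sirt5+/+ livers. Of the 10 stromal and endothelial markers, the 3 collagen genes summed to 1990, 2050 and 1840 CPM in Sirt5-/- livers, against 302, 369 and 529 CPM in Sirt5+/+ livers, and all 3 were higher. The other 7 summed to 103, 93.2 and 114 CPM in Sirt5-/- livers, against 97.5, 151 and 67 CPM in Sirt5+/+ livers, with 0 higher and 1 lower (Stab2, a marker of liver sinusoidal endothelium, -1.79 ± 0.36, adjusted p = 0.00707, edgeR). In whole liver, fewer hepatocytes and less RNA per hepatocyte cannot be told apart.

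Of the 94 respiratory chain genes tested, 45 were lower in livers without Sirt5 and 0 were higher at an adjusted p under 0.05 (edgeR quasi-likelihood F test), while over all 14799 genes tested 17.1% were lower and 17.4% were higher. The other 49 did not pass the threshold, and limma-voom called 2 genes higher and 45 lower. The log2 fold change was negative for 91 of the 94, with a median of -0.83, against a median of -0.08 over all genes. In 56 of the 94 the highest Sirt5-/- library lay under the lowest Sirt5+/+ library, as it did in 24% of all genes tested. Complex II had the lowest median, at -1.8 over 4 genes, followed by complex III at -0.94 over 9, complex V at -0.88 over 17, complex IV at -0.82 over 14 and complex I at -0.73 over 39. The assembly factors had medians of -0.63 (8 Ndufaf genes) and -0.29 (3 Uqcc genes). The order of these medians was not tested.

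**Figure D1:**
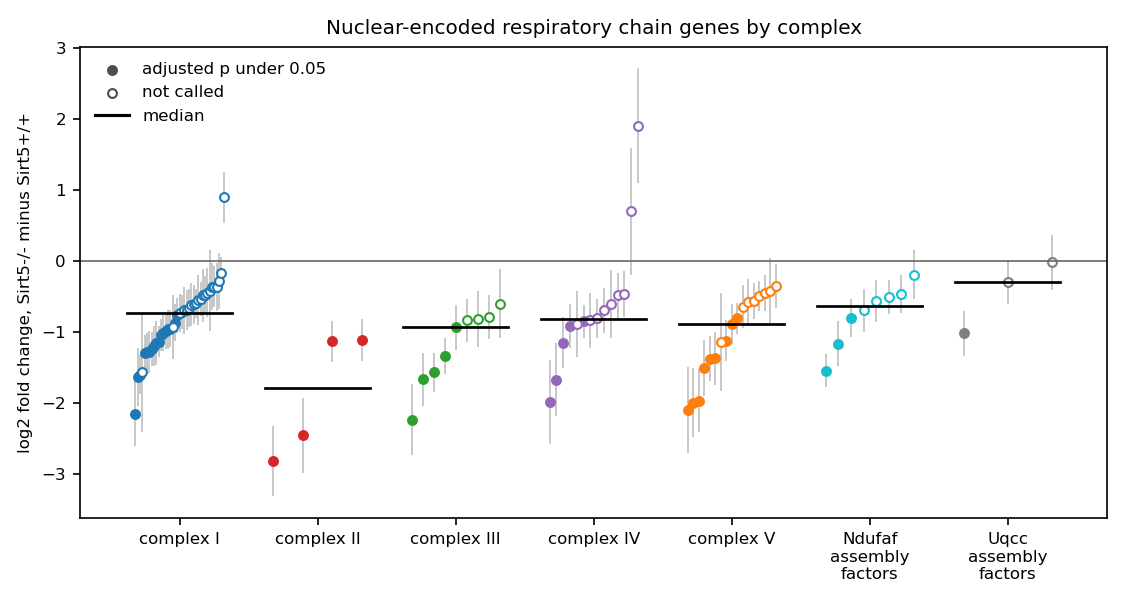
Log2 fold change of each tested gene (Sirt5-/- minus Sirt5+/+, bars ± SE), grouped by complex; filled points passed the adjusted p threshold of 0.05, open points did not, and the black lines are group medians. All 4 genes of complex II are filled, 3 genes of complexes I and IV lie above 0, and none of these 3 was called.

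The number of calls depended on the libraries and on the scaling. Leaving out the mitochondria-rich Sirt5+/+ replicate 3 gave 50 genes lower, and leaving out Sirt5+/+ replicate 1 or 2 gave 32 or 31. Without Sirt5-/- replicate 1, 2 or 3 the count was 18, 12 or 12. The share of all genes called in the alternative fits, here and below, is not given. Changes in these counts are thus not told apart from changes over all genes. With library totals in place of TMM factors, the median of all genes moved by 0.68, to 0.6, and 2 respiratory chain genes were lower and 2 higher. A change of scaling moves all genes by nearly the same amount. The distance from the median of all genes could therefore hardly change with it, and is no check on the scaling. Taken as that distance, the median of the respiratory chain genes was -0.75 with TMM factors and -0.75 with library totals. It was -0.73 when libraries were scaled on hepatocyte markers, and -0.88 to -0.64 over all settings tried. For complex II the distance was -1.72, -1.86 and -1.64 under these 3 scalings. Of the 94 genes, 90, 90 and 91 lay under the median of all genes, counts that scaling could hardly change either.

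**Figure D2:**
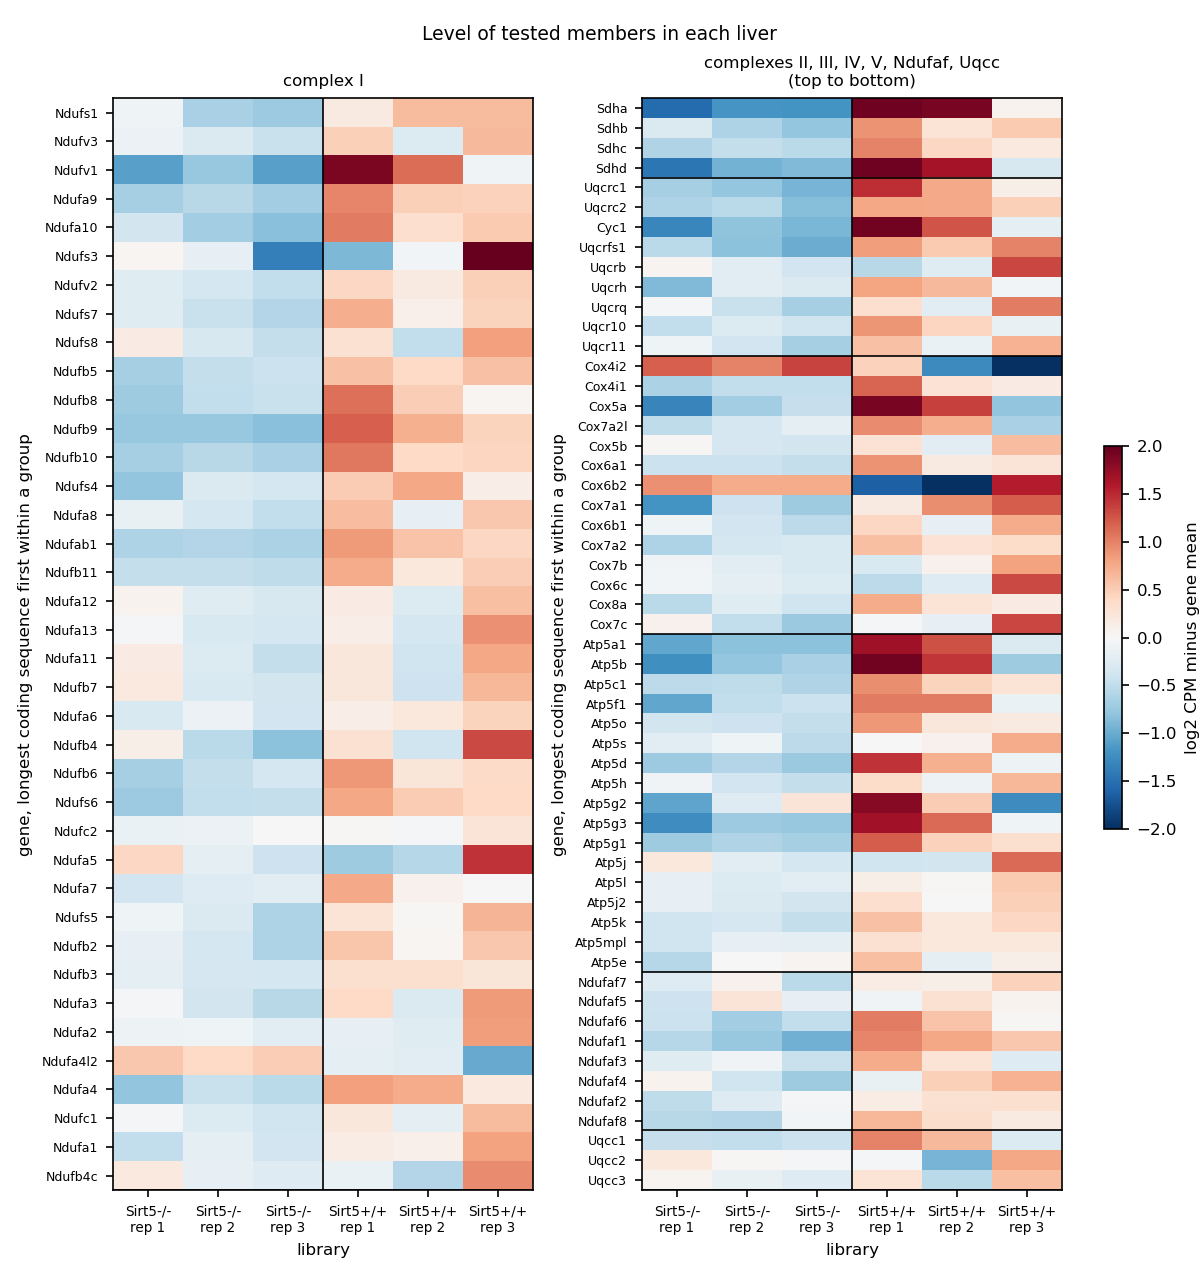
Level of the tested genes reported here in each library (log2 CPM minus the mean of the gene over 6 libraries, colour scale cut at ±2), with Sirt5-/- libraries left of Sirt5+/+ libraries and genes ordered from the longest to the shortest coding sequence within each group. Sdha, Sdhd, Ndufv1, Cyc1, Cox5a, Atp5a1, Atp5b and Atp5g3 are highest in Sirt5+/+ replicates 1 and 2, whereas Cox4i2 and Ndufa4l2 are higher in the Sirt5-/- libraries.

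Promoters are shown for the motifs of factors known to act on nuclear genes for mitochondrial proteins. Sequences of 250 bases before to 50 bases after the annotated start (RefSeq, GRCm38.p6, the build whose gene models match the table) were found for 80 of the 102 genes. They were searched on both strands for the cores of 4 such factors: GCGCATGCG (NRF1), CCGGAAGT (the ETS factor GABPA), TCAAGGTCA (estrogen-related receptors, ERR) and AAGATGGCG (YY1). The motifs do not overlap one another in their letters, but a palindromic NRF1 site is read on both strands and was counted as 1 promoter. Promoters of these genes were richer in GC than all promoters (median 57.7%, against 52.7%), and the part of base composition in the counts below was not tested. The NRF1 core was in 10 of the 80 promoters (12.5%), against 1.95% of 27025 genes in the promoter table and 3.72% of the 11090 of them that were tested. The YY1 core was in 8 (10%), against 1.64 and 3.31%, and in 7 of the 8 it lay after the start, as in 250 of the 443 genes of the table that hold it. The GABPA core was in 5 (6.25%), against 4.31 and 8.49%. The ERR element was in 2 (2.5%), Sdhd and Atp5g3, against 0.466 and 0.325%. Of 36 promoters of genes called lower, 3 held the NRF1 core, 1 the GABPA core, 2 the ERR element and 5 the YY1 core, against 7, 4, 0 and 3 of the 41 promoters of genes tested and not called. These counts are a description of letters in a window and were not tested. Below are both promoters with the ERR element, which belong to genes called lower, and an example each for NRF1 (Uqcrc1) and YY1 (Ndufa9), written 5′ to 3′ along the gene with the motif in capitals.
Sdhd promoter, chr9:50603800-50604099, strand -: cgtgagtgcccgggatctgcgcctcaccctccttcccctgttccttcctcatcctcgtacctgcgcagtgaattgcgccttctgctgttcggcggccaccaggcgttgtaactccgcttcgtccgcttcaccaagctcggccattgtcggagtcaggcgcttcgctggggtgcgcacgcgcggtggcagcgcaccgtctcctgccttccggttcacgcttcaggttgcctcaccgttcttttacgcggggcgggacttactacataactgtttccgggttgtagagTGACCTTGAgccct
Atp5g3 promoter, chr2:73911277-73911576, strand -: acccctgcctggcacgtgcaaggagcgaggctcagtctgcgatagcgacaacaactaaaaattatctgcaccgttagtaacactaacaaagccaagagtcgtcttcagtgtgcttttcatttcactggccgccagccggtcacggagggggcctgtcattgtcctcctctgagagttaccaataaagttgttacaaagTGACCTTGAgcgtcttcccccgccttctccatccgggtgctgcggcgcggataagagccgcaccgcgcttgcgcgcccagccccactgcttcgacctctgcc
Uqcrc1 promoter, chr9:108936398-108936697, strand +: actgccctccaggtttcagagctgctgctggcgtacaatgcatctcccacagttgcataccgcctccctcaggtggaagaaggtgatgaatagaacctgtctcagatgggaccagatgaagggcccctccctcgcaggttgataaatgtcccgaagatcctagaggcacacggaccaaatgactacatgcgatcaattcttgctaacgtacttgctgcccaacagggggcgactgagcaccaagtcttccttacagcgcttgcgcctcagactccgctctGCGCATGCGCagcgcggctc
Ndufa9 promoter, chr6:126849095-126849394, strand -: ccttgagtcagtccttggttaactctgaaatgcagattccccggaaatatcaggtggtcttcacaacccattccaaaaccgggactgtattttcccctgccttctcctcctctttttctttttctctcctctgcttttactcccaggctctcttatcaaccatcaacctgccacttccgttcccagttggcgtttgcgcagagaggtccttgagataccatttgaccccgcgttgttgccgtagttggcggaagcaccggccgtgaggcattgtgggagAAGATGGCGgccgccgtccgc
In Sdhd and Atp5g3 the element reads TGACCTTGA, its other strand, and starts 37 bases after and 52 bases before the annotated start.

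Complex I is an arm-shaped assembly in which the flavin and iron-sulfur proteins of the matrix arm carry electrons from NADH to coenzyme Q. Of 39 complex I genes tested, 18 were lower and 0 higher, with 21 not called. Over all genes tested 17.1% were lower and 17.4% higher. Ndufv1, which holds the NADH-binding flavin, had 18.3, 22.9 and 18.3 CPM in Sirt5-/- livers, against 143, 84.4 and 36.8 CPM in Sirt5+/+ livers. The genotypes did not overlap, and Sirt5+/+ replicate 3 lay nearest to the knockouts (log2 fold change -2.15 ± 0.46 SE, adjusted p = 0.00848, edgeR). Ndufb9, an accessory subunit of the membrane arm, had 48, 48.2 and 45.3 CPM in Sirt5-/- livers, against 185, 133 and 111 CPM in Sirt5+/+ livers (-1.6 ± 0.28, adjusted p = 0.00409). The genotypes did not overlap for Ndufb9 either. Without Sirt5-/- replicate 2 or 3, 5 or 6 complex I genes were called, and 9 were without Sirt5-/- replicate 1.

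The 7 catalytic core subunits made in the nucleus, a division of the complex made after seeing the data, had 5 lower and a median of -0.96. The 32 other complex I genes tested had 13 lower and a median of -0.69, while over all genes tested 17.1% were lower and the median was -0.08. Of the core subunits not called, Ndufs3, a protein of the matrix arm, had 3.27, 2.84 and 1.19 CPM in Sirt5-/- livers, against 1.66, 3.07 and 17.6 CPM in Sirt5+/+ livers (-1.57 ± 0.84, adjusted p = 0.181). Sirt5+/+ replicate 3 alone was high, and the genotypes overlapped. Ndufs3 shares 25.4% of its 31-base words with other genes, so its level is uncertain. At the other end, Ndufc2, an accessory subunit of the membrane arm, had 47.9, 48.4 and 53.1 CPM in Sirt5-/- livers, against 53.6, 51.4 and 62.8 CPM in Sirt5+/+ livers (-0.17 ± 0.22, adjusted p = 0.596). The genotypes overlapped. Ndufa4 was lower, with 65.3, 82.8 and 77.7 CPM in Sirt5-/- livers, against 199, 188 and 129 CPM in Sirt5+/+ livers (-1.19 ± 0.28, adjusted p = 0.0129), and missed the threshold whichever Sirt5-/- library was left out (0.0573 to 0.0643; 0.000146 to 0.599 over 18 alternatives). The pseudogene Ndufb4c (-0.29 ± 0.4, adjusted p = 0.611) shares all of its 31-base words with Ndufb4, so its reads cannot be told apart from reads of that part of Ndufb4. Ndufb4 shares 19.1% of its own words with Ndufb4c, so its level is uncertain too. Ndufa11b and Ndufs6b had no count.

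The rest of complex I was ordered in the same way. Besides the genes above, Ndufa9 (-1.3 ± 0.25, adjusted p = 0.0062), Ndufb10 (-1.28 ± 0.27, adjusted p = 0.00863), Ndufa10 (-1.28 ± 0.3, adjusted p = 0.0118) and Ndufab1, the mitochondrial acyl carrier protein (-1.24 ± 0.23, adjusted p = 0.00555), were lower without overlap of the genotypes. Ndufa9 had 40.4, 43.2 and 39.2 CPM in Sirt5-/- livers, against 126, 88.7 and 87.7 CPM in Sirt5+/+ livers. Ndufb8, Ndufs6, Ndufb5, Ndufb6, Ndufb11, Ndufs1, Ndufs4, Ndufs7, Ndufb2 and Ndufv2 were lower too, with log2 fold changes from -1.16 to -0.72, and Ndufb6 (34.4%) and Ndufb11 (29%) share part of their words with other genes. Closest to the threshold without passing it were Ndufb3 (-0.59 ± 0.2, adjusted p = 0.0526) and Ndufa1 (-0.73 ± 0.27, adjusted p = 0.0689), both without overlap. The others not called were Ndufb4, Ndufa8, Ndufa3, Ndufs5, Ndufv3, Ndufa7, Ndufa13, Ndufa6, Ndufs8, Ndufc1, Ndufa11, Ndufa5, Ndufa12, Ndufa2 and Ndufb7, with values from -0.93 to -0.36.

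In complex II all 4 subunits were lower, as were 17.1% of all genes tested, and 2 of them fell furthest of all the genes described here. Sdha, the flavoprotein that oxidises succinate, had 24.8, 32.1 and 31.6 CPM in Sirt5-/- livers, against 280, 270 and 75.7 CPM in Sirt5+/+ livers (-2.82 ± 0.49, adjusted p = 0.00418, edgeR). Sdhd, a membrane anchor that helps to form the coenzyme Q site, had 13.9, 19.5 and 20.4 CPM in Sirt5-/- livers, against 146, 120 and 30.3 CPM in Sirt5+/+ livers (-2.46 ± 0.53, adjusted p = 0.00912). For both genes the 3 Sirt5-/- libraries lay close together and Sirt5+/+ replicate 3 stood between them and the other Sirt5+/+ libraries. These 2 genes passed the threshold under all 18 alternatives tried, with adjusted p from 2.7e-08 to 0.0276 for Sdha and from 1.37e-05 to 0.0438 for Sdhd. Sdhb, the iron-sulfur subunit, had 110, 87.4 and 79 CPM in Sirt5-/- livers, against 251, 162 and 193 CPM in Sirt5+/+ livers (-1.13 ± 0.29, adjusted p = 0.0185). Sdhc, the other membrane anchor, had 67.2, 73.5 and 70.4 CPM in Sirt5-/- livers, against 204, 136 and 117 CPM in Sirt5+/+ livers (-1.11 ± 0.29, adjusted p = 0.0192). None of the 4 overlapped between genotypes, while 24% of all genes tested were lower without overlap. Without Sirt5-/- replicate 2 or 3, Sdhb and Sdhc were no longer called (adjusted p from 0.0854 to 0.107), and without Sirt5-/- replicate 1 Sdhc was not (0.0715). Over 18 alternatives the adjusted p ran from 0.00118 to 0.652 for Sdhb and from 0.00146 to 0.662 for Sdhc.

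Complex III passes electrons from coenzyme Q through the Rieske iron-sulfur protein and cytochrome c1 to cytochrome c. Of its 9 genes 5 were lower, among them the 4 that encode the larger proteins, while over all genes tested 17.1% were lower. Cyc1, cytochrome c1, had 29, 40.9 and 38.1 CPM in Sirt5-/- livers, against 274, 171 and 63.4 CPM in Sirt5+/+ livers (-2.24 ± 0.5, adjusted p = 0.0101, edgeR). Uqcrc1, a core protein of the matrix side, had 87, 80.8 and 72.6 CPM in Sirt5-/- livers, against 381, 233 and 149 CPM in Sirt5+/+ livers (-1.67 ± 0.38, adjusted p = 0.0107). The genotypes did not overlap for either gene, and Sirt5+/+ replicate 1 was the highest library for both. Uqcrfs1, the Rieske protein, had 72.8, 59.7 and 52.7 CPM in Sirt5-/- livers, against 188, 151 and 210 CPM in Sirt5+/+ livers (-1.57 ± 0.28, adjusted p = 0.00422). Uqcrc2, the other core protein, had 66.3, 69.5 and 56 CPM, against 173, 171 and 142 CPM in Sirt5+/+ livers (-1.34 ± 0.25, adjusted p = 0.00542). For these 2 genes Sirt5+/+ replicate 3 lay with the other Sirt5+/+ libraries. The 5 small subunits had a median of -0.82, against -1.62 for the 4 larger ones, a division made after seeing the data, and only Uqcrh was called (-0.94 ± 0.31, adjusted p = 0.0483). Uqcrb, a small subunit near the coenzyme Q site, had 115, 95.4 and 85.1 CPM in Sirt5-/- livers, against 75.8, 93.8 and 279 CPM in Sirt5+/+ livers (-0.6 ± 0.49, adjusted p = 0.371), and its direction rested on Sirt5+/+ replicate 3, without which it was 0.27. It shares 34.8% of its 31-base words with other genes. Uqcr11 (-0.79 ± 0.32, adjusted p = 0.087), Uqcr10 (-0.83 ± 0.3, adjusted p = 0.0648) and Uqcrq (-0.82 ± 0.4, adjusted p = 0.144) did not pass the threshold either. Uqcrc1 missed the threshold without Sirt5-/- replicate 2 or 3 (0.0579 and 0.0604; 9.4e-05 to 0.253 over 18 alternatives), and the count for the complex was 3 without either.

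**Figure D3:**
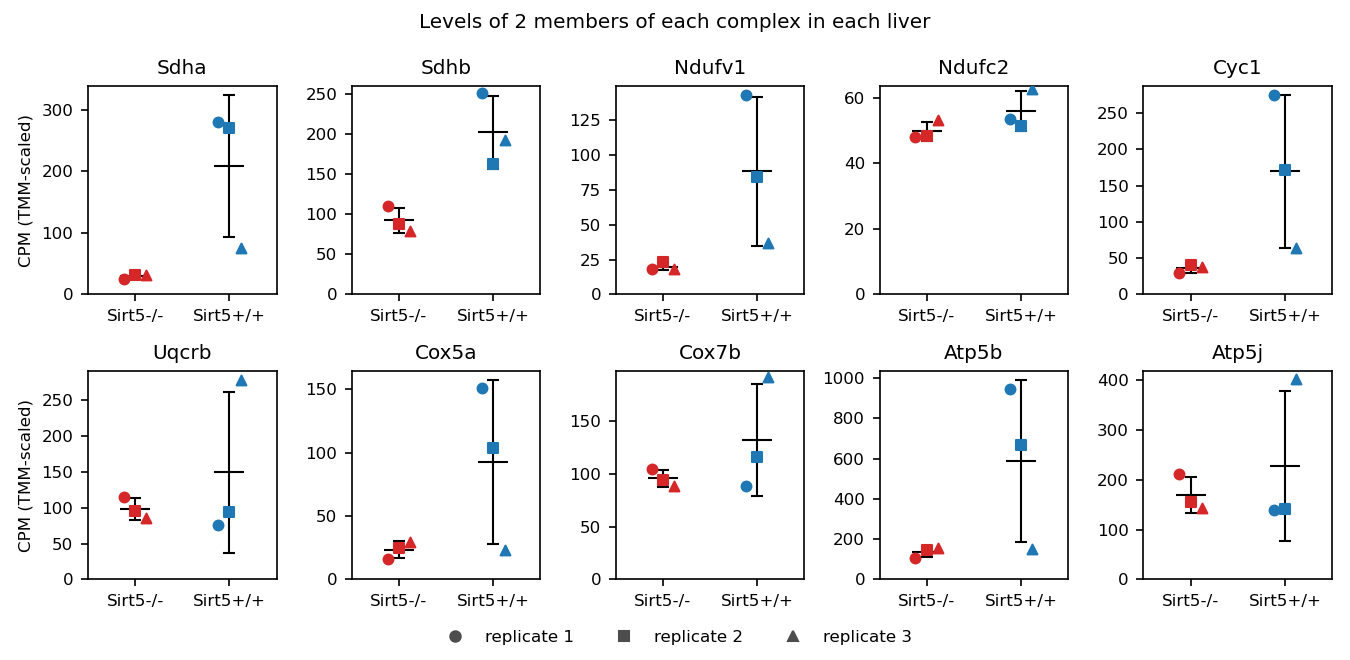
Level in CPM (linear axis from 0) of 2 genes of each complex in each library, with Sirt5-/- left of Sirt5+/+; symbols mark the replicate, and black bars are the mean ± SD of 3 libraries. Sirt5+/+ replicate 3 is the lowest Sirt5+/+ library for Sdha, Ndufv1, Cyc1, Cox5a and Atp5b and the highest for Ndufc2, Uqcrb, Cox7b and Atp5j.

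Complex IV holds the oxygen-reducing centre in subunits made from mitochondrial DNA, surrounded by nuclear-encoded subunits, several of which exist as paralogous forms used in different tissues. Of 14 complex IV genes tested, 5 were lower and 0 higher, while over all genes tested 17.1% were lower and 17.4% higher. The other 5 of the 19 were not tested. Cox4i1, the common form of subunit 4, had 184, 201 and 202 CPM in Sirt5-/- livers, against 637, 349 and 318 CPM in Sirt5+/+ livers (-1.15 ± 0.35, adjusted p = 0.0363, edgeR). Cox7a1, known as the heart and muscle form of its subunit, was scarce, with 139 counts over all 6 libraries together. It had 0.35, 0.662 and 0.525 CPM in Sirt5-/- livers, against 1.04, 1.82 and 2.23 CPM in Sirt5+/+ livers (-1.67 ± 0.51, adjusted p = 0.0361). Neither Cox4i1 nor Cox7a1 overlapped between genotypes, as was also true of Cox7a2 (-0.85 ± 0.23, adjusted p = 0.0234) and Cox6a1 (-0.92 ± 0.31, adjusted p = 0.0491), the forms of their subunits common in liver. Cox5a, an early-assembling subunit, had 16, 24.7 and 29.3 CPM in Sirt5-/- livers, against 151, 104 and 23.2 CPM in Sirt5+/+ livers (-1.99 ± 0.6, adjusted p = 0.033). It was called although the genotypes overlapped, since Sirt5+/+ replicate 3 lay among the Sirt5-/- libraries. Whichever Sirt5-/- library was left out, none of the 5 was called (adjusted p from 0.0823 to 0.189 for the 5 genes), and without Sirt5+/+ replicate 1 or 2 the complex had 2 or 1 called. Cox7b had 105, 93.9 and 88.3 CPM in Sirt5-/- livers, against 88.8, 116 and 192 CPM in Sirt5+/+ livers (-0.46 ± 0.33, adjusted p = 0.308). Cox7c, Cox7a2l, Cox8a, Cox6b1, Cox6c and Cox5b were not called either, with values from -0.89 to -0.48 and Cox8a nearest to the threshold (-0.81 ± 0.28, adjusted p = 0.0535). Of the genes not tested, Cox6a2 and Cox8b had few counts and Cox6c2, Cox7b2 and Cox8c had none.

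The 3 genes with a positive log2 fold change were alternative forms that are scarce in normal liver, and none of them was called. Cox4i2, the form of subunit 4 known from lung and induced by low oxygen, had 1.17, 0.992 and 1.3 CPM in Sirt5-/- livers, against 0.664, 0.143 and 0 CPM in Sirt5+/+ livers (1.91 ± 0.81, adjusted p = 0.103). These levels came from 20, 36 and 47 counts in Sirt5-/- libraries, against 14, 4 and 0 counts in Sirt5+/+ libraries, and no library of one genotype reached the other. Ndufa4l2, a paralog of Ndufa4 that is induced by low oxygen, had 3.62, 3.28 and 3.48 CPM in Sirt5-/- livers, against 2.14, 2.11 and 1.18 CPM in Sirt5+/+ livers (0.9 ± 0.36, adjusted p = 0.0862). The genotypes did not overlap. Cox6b2, the testis form of its subunit, had 6.77, 6.04 and 6.02 CPM in Sirt5-/- livers, against 1.09, 0.643 and 10.7 CPM in Sirt5+/+ livers (0.7 ± 0.9, adjusted p = 0.58). Sirt5+/+ replicate 3 was the highest library and the other Sirt5+/+ libraries were the lowest, and without replicate 3 the gene was higher in Sirt5-/- livers (2.92, adjusted p = 0.000262; 0.000262 to 0.919 over 18 alternatives). Cox4i2 passed without Sirt5+/+ replicate 1 (3.47, adjusted p = 0.0248; 0.0248 to 0.268 over 17 alternatives), and Ndufa4l2 missed the threshold whichever library was left out (up to 0.216; 0.0352 to 0.216 over 18 alternatives).

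Each gene was also read beside a paralog in the same library, as a log2 ratio of CPM with a prior count of 2. The 2 genes of a pair need not be forms of the same subunit. For Cox4i2 over Cox4i1 the ratio was -7.21, -7.55 and -7.2 in Sirt5-/- livers, against -9.74 and -10.6 in Sirt5+/+ replicates 1 and 2. Sirt5+/+ replicate 3 had 0 counts of Cox4i2, so its ratio is set by the prior count and no fold is drawn from it. In counts without a prior the log2 ratio was -7.3, -7.67 and -7.28 in Sirt5-/- livers, against -9.91, -11.26 and, with replicate 3 at a floor of 3 counts for that library, at most -9.66 in Sirt5+/+ livers. The mean difference was then at least 2.86. For Ndufa4l2 over Ndufa4 it was -4.14, -4.62 and -4.45 in Sirt5-/- livers, against -6.49, -6.43 and -6.68 in Sirt5+/+ livers, a difference of 2.13. For Cox6b2 over Cox6b1 it was -4.5, -4.36 and -4.24 in Sirt5-/- livers, against -7.54, -7.66 and -4.67 in Sirt5+/+ livers, a difference of 2.26. In these 3 pairs every Sirt5-/- library exceeded every Sirt5+/+ library, with p = 0.1 in the exact two-sided permutation test, the smallest p that 3 libraries against 3 allow, and an adjusted p of 0.233 over the 7 pairs tested. The other pairs overlapped: Cox7a1 over Cox7a2 differed by -0.71 (exact p = 0.3) and Cox7a2l over Cox7a2 by 0.16 (exact p = 1). Cox6a2 and Cox8b had libraries at 0 counts, so no difference is given for Cox6a2 over Cox6a1 (exact p = 0.7) and Cox8b over Cox8a (exact p = 1). Even in Sirt5-/- livers the alternative form remained far under the common one per length, with 1.46, 2.31 and 3.49 length-scaled units (TPM, the authors' values) for Cox4i2, against 1.32, 0.36 and 0 TPM in Sirt5+/+ livers, beside 225.48, 460.18 and 531.05 TPM for Cox4i1 in Sirt5-/- livers, against 1221.03, 846.35 and 162.03 TPM in Sirt5+/+ livers. Of the 10 stromal and endothelial markers, 3 were higher, all of them fibrillar collagen genes, and 1 was lower. While over all genes tested 17.4% were higher and 17.1% lower, 7 of 9 leukocyte markers tested were higher. The part of such cells in the level of Cox4i2, Ndufa4l2 or Cox6b2 was not tested.

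**Figure D4:**
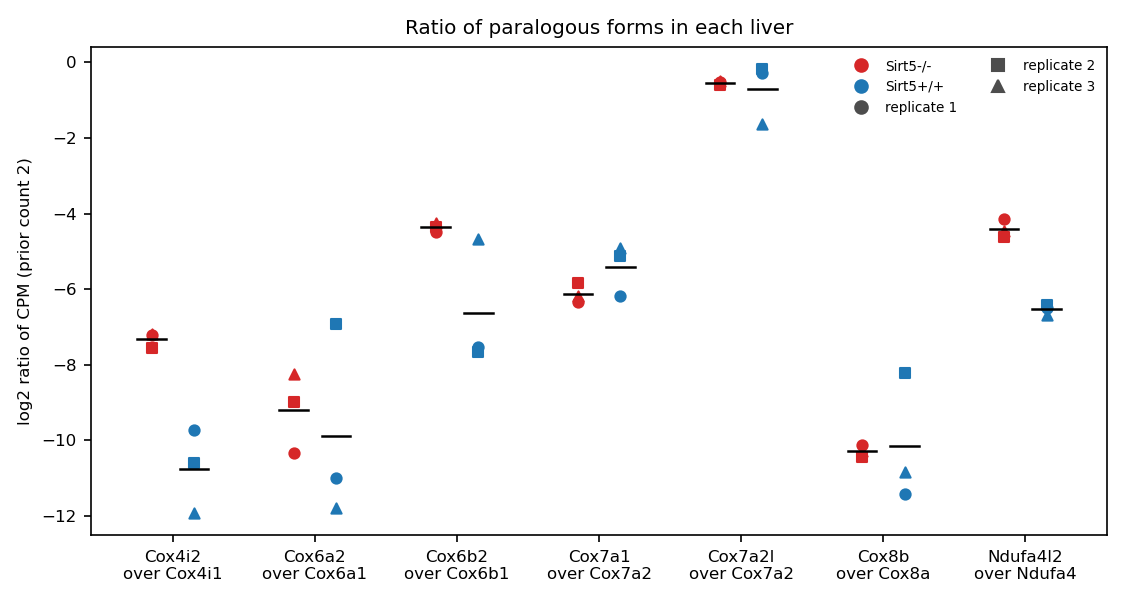
Log2 ratio of the CPM of 2 paralogous forms in each library (prior count 2), with Sirt5-/- left of Sirt5+/+ in each pair; symbols mark the replicate and black lines the means. The ratio is higher in every Sirt5-/- library than in any Sirt5+/+ library for Cox4i2 over Cox4i1, Cox6b2 over Cox6b1 and Ndufa4l2 over Ndufa4, and overlaps in the other 4 pairs; points of Cox4i2, Cox6a2 and Cox8b in libraries with 0 counts are set by the prior.

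Complex V couples a proton-driven ring of c subunits to the catalytic F1 head. Of 17 genes tested, 9 were lower and 0 higher, while over all genes tested 17.1% were lower and 17.4% higher. Atp5b, the catalytic beta subunit, had 106, 146 and 158 CPM in Sirt5-/- livers, against 944, 668 and 152 CPM in Sirt5+/+ livers (-2.1 ± 0.61, adjusted p = 0.0279, edgeR). Atp5a1, the alpha subunit beside it in the head, had 114, 132 and 132 CPM in Sirt5-/- livers, against 750, 563 and 190 CPM in Sirt5+/+ livers (-2 ± 0.49, adjusted p = 0.0151). Sirt5+/+ replicate 3 overlapped the Sirt5-/- libraries for Atp5b, and stood just above them for Atp5a1. The c subunit is made by 3 genes that encode the same mature protein. Of these, Atp5g3 had 47.5, 68.2 and 66.3 CPM in Sirt5-/- livers, against 360, 246 and 106 CPM in Sirt5+/+ livers (-1.97 ± 0.45, adjusted p = 0.0111), Atp5g1 was also lower (-1.38 ± 0.32, adjusted p = 0.0116) and Atp5g2, at 1.05 to 9.49 CPM, was not called (-1.14 ± 0.69, adjusted p = 0.232). Atp5g2 shares 40.2% of its 31-base words with other genes. Atp5d, the delta subunit of the central stalk (-1.5 ± 0.4, adjusted p = 0.0199), Atp5c1, the gamma subunit that turns within the head (-1.12 ± 0.28, adjusted p = 0.0172), Atp5f1, a subunit of the peripheral stalk (-1.37 ± 0.38, adjusted p = 0.0231), and Atp5k (-0.81 ± 0.22, adjusted p = 0.0233) were lower without overlap. Atp5o was lower as well (-0.88 ± 0.28, adjusted p = 0.0418) but shares 49.6% of its words. Atp5h, Atp5s, Atp5j2, Atp5mpl and Atp5l were not called, with values from -0.64 to -0.45. By position, in a grouping made after seeing the data, the median was -1.5 for 5 genes of the head and central stalk (4 lower), -1.38 for the 3 c subunit genes (2 lower), -0.76 for 4 genes of the peripheral stalk (2 lower) and -0.53 for 4 small membrane subunits (1 lower), with 1 gene tested outside these places. Atp5e, the small epsilon subunit of the central stalk, had 72.8, 109 and 113 CPM in Sirt5-/- livers, against 164, 94.8 and 118 CPM in Sirt5+/+ livers (-0.36 ± 0.31, adjusted p = 0.414). Atp5j, coupling factor 6 of the peripheral stalk, had 211, 155 and 143 CPM in Sirt5-/- livers, against 139, 142 and 402 CPM in Sirt5+/+ livers (-0.42 ± 0.46, adjusted p = 0.512), with a log2 fold change of 0.33 when Sirt5+/+ replicate 3 was left out. The 9 calls became 1, 1 and 0 without Sirt5-/- replicate 1, 2 or 3, and 6 without Sirt5+/+ replicate 1 or 2. Atp5g3 then had adjusted p values up to 0.051, Atp5a1 up to 0.0665 and Atp5b up to 0.101 (from 5.68e-05 to 0.14, 9.75e-05 to 0.113 and 0.000296 to 0.102 over 18 alternatives).

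Assembly factors bring subunits and cofactors together and are not part of the finished complex. Of 8 Ndufaf genes, 3 were lower and 0 higher, while over all genes tested 17.1% were lower and 17.4% higher. Ndufaf1, which acts in assembly of the membrane arm of complex I, had 8.34, 7.31 and 6.38 CPM in Sirt5-/- livers, against 24.5, 21.4 and 18.2 CPM in Sirt5+/+ livers (-1.54 ± 0.23, adjusted p = 0.00271, edgeR). Each genotype kept to a narrow range, and the call held whichever library was left out (up to 0.0248). Ndufaf6 had 4.2, 3.5 and 4 CPM in Sirt5-/- livers, against 11.7, 8.53 and 5.76 CPM in Sirt5+/+ livers (-1.16 ± 0.32, adjusted p = 0.0229), and Ndufaf8 was lower by a small margin (-0.8 ± 0.27, adjusted p = 0.0486). Both missed the threshold when any library other than Sirt5+/+ replicate 3 was left out (0.0596 to 0.209; 0.00259 to 0.603 for Ndufaf6 and 0.0212 to 0.908 for Ndufaf8 over 18 alternatives). Ndufaf2 (-0.51 ± 0.24, adjusted p = 0.143) shares 65.1% of its words and overlaps a gene of the opposite strand, so its value is uncertain, and Ndufaf7, a methyltransferase, gave -0.46 ± 0.26 (adjusted p = 0.211). Ndufaf4, Ndufaf3 and Ndufaf5 lay from -0.7 to -0.19 and overlapped between genotypes. Of the complex III factors, Uqcc1 had 9.74, 9.48 and 9.97 CPM in Sirt5-/- livers, against 26.8, 21.1 and 11 CPM in Sirt5+/+ livers (-1.02 ± 0.32, adjusted p = 0.0397; 0.106 to 0.14 when any library other than Sirt5+/+ replicate 3 was left out, 0.00118 to 0.672 over 18 alternatives). Uqcc2 (-0.02 ± 0.39, adjusted p = 0.976) and Uqcc3 (-0.29 ± 0.31, adjusted p = 0.493) overlapped between genotypes.

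Across the complexes, genes with a longer coding sequence had lower log2 fold changes, a relation noticed in the values and described here without a test. Coding length is the longest annotated in GENCODE M21. Over 93 coding members tested, Spearman's rho between length and log2 fold change was -0.47, whereas over all 13452 coding genes tested it was 0.01. Within complexes it was -0.52 in complex I (38 genes), -0.73 in complex III (9), -0.71 in complex V (17) and -0.07 in complex IV (14). The points share libraries, and subunits of 1 complex are not independent. Of 20 members with at least 800 coding bases, 17 were lower (85%, median -1.32), against 18.8% of all coding genes of that length. Of 34 members with 400 to under 800 bases, 18 were lower (52.9%, median -0.92), against 15.3% of all. Of 39 shorter members, 10 were lower (25.6%, median -0.67), against 11.7% of all. Without Sirt5+/+ replicate 3 the counts were 17, 21 and 12. They were 11, 6 and 1 without Sirt5-/- replicate 1, and 7, 4 and 1 without Sirt5-/- replicate 2 or 3. With library totals they were 1, 1 and 0.

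The libraries that stand apart bear on this relation. In Sirt5+/+ replicate 3, the median difference from the mean of the other Sirt5+/+ libraries was -0.37 on the log2 scale for members with at least 800 bases and 0.46 for members under 400 bases (all coding genes of these lengths -0.13 and 0.22). With both mitochondria-rich libraries left out, rho over the members was -0.5 (all coding genes 0.01), and the medians were -1.45, -0.95 and -0.52 from the longest to the shortest class. Sirt5-/- replicate 1 differed from the other Sirt5-/- libraries by 0.01, 0.01 and 0.1 at the median of the 3 classes. RNA integrity is not given in the sources used here, and its part was not tested.

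**Figure D5:**
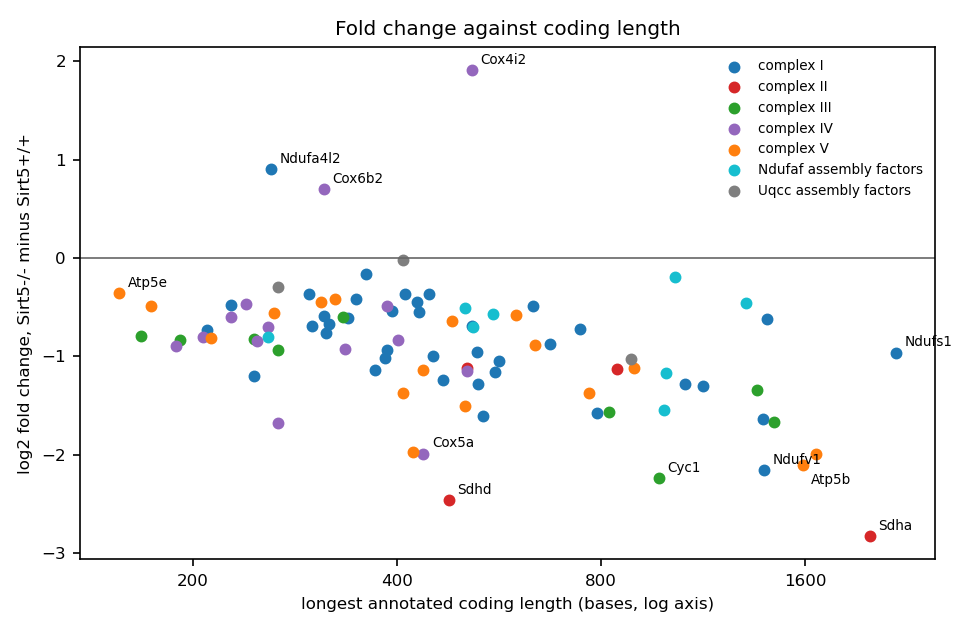
Log2 fold change (Sirt5-/- minus Sirt5+/+) of 93 tested coding genes against their longest annotated coding length (log axis), coloured by complex. Long genes such as Sdha, Ndufv1 and Atp5b lie low, and Sdhd and Cox5a are low for their length. Genes under 400 bases have a median of -0.67, and the short Atp5e lies above that median.

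The hepatocyte markers had a lower median than the respiratory chain genes, a difference that was not tested. The median log2 fold change of the 19 markers tested was -1.86, against -0.83 for the 94 respiratory chain genes. When libraries were scaled so that the hepatocyte markers stood level, 51 of the 94 were higher in Sirt5-/- livers and 0 lower, while over all genes tested 72.4% were higher and 0.568% lower on that scale. On that scale complex II had 0 higher of 4 and a median of 0.15, complex III 3 of 9 and 0.94, complex V 8 of 17 and 1.03, complex I 23 of 39 and 1.09, and complex IV 9 of 14 and 1.11. Sdha (-0.83 ± 0.47, adjusted p = 0.118), Sdhd (-0.43 ± 0.49, adjusted p = 0.434), Cyc1 (-0.21 ± 0.46, adjusted p = 0.683), Ndufv1 (-0.17 ± 0.43, adjusted p = 0.734) and Atp5b (-0.05 ± 0.53, adjusted p = 0.933) lay at or below the level of the markers and were not called. Without Sirt5+/+ replicate 3, Sdha was lower even relative to the markers (-1.17, adjusted p = 0.00761), as it was without both mitochondria-rich libraries (-0.93, adjusted p = 0.0334). The number higher ran from 16 without Sirt5+/+ replicate 2 to 69 without both mitochondria-rich libraries.

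Genes that serve the chain from outside these complexes moved with it in part. Of 18 genes for electron carriers and coenzyme Q synthesis, 10 were lower and 0 higher (median -1.12). Over all genes tested, the share for this and the following lists was 17.1% lower and 17.4% higher (median -0.08). Coq8a, an atypical kinase needed for coenzyme Q synthesis, had 22.6, 26.7 and 23.2 CPM in Sirt5-/- livers, against 245, 155 and 69.2 CPM in Sirt5+/+ livers (-2.7 ± 0.45, adjusted p = 0.0036, edgeR), and Etfdh, which feeds electrons from fatty acid oxidation to coenzyme Q, had 14.3, 17.9 and 17.3 CPM, against 71.9, 102 and 47.4 CPM in Sirt5+/+ livers (-2.16 ± 0.32, adjusted p = 0.0026). Neither overlapped between genotypes. Of 37 other assembly factors tested, 13 were lower and 1 higher (median -0.8). Foxred1, a complex I factor, was lower (-1.53 ± 0.22, adjusted p = 0.00244), as was Sco2, a copper chaperone of complex IV (-1.81 ± 0.31, adjusted p = 0.00395), which shares 89.7% of its words with other genes, Tymp foremost, and is uncertain. Coa4, a complex IV factor, was the single higher gene (0.84 ± 0.26, adjusted p = 0.0351), named after its value was seen. Of 15 regulators of mitochondrial gene expression, 5 were lower and 0 higher (median -0.42). Lrpprc, which stabilises mitochondrial mRNA, had 29.3, 23.2 and 16.2 CPM in Sirt5-/- livers, against 56.6, 65.7 and 91.1 CPM in Sirt5+/+ livers (-1.63 ± 0.31, adjusted p = 0.00562), and Tfam, which packages mitochondrial DNA and starts its transcription, had 8.05, 11.5 and 11.5 CPM, against 20.9, 24.9 and 22.7 CPM in Sirt5+/+ livers (-1.14 ± 0.23, adjusted p = 0.00752). Ppargc1a, the coactivator PGC-1 alpha, was lower too (-2.09 ± 0.53, adjusted p = 0.0178). Of the factors whose motifs were searched, Nrf1 (0.09 ± 0.28, adjusted p = 0.83), Gabpa (-0.42 ± 0.25, adjusted p = 0.228), Esrra (-0.42 ± 0.23, adjusted p = 0.197) and Yy1 (-0.23 ± 0.23, adjusted p = 0.465) were not called. The last 5 genes were picked with their values already seen.

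Of the 13 subunits encoded by mitochondrial DNA, all 12 that were tested had their highest level in Sirt5+/+ replicate 3. By edgeR 0 were lower and 0 higher, with 0 at an unadjusted p under 0.05 (the smallest was 0.128, for mt-Nd4l), and the median was -0.9. Without Sirt5+/+ replicate 3 the median was 2.2 and 9 were higher in Sirt5-/- livers. Several of these genes share nearly all of their words with copies in the nuclear genome (100% for mt-Co2 and 99.9% for mt-Co3), so reads could be split between them. Others share little (0% for mt-Nd1 and 6.55% for mt-Cytb). No direction is given, since the sign of the median turned on Sirt5+/+ replicate 3.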

How the data were processed

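The 6 liver RNA libraries are held in 1 deposited table. HISAT2 2.1.0, RSEM 1.3.1 and DESeq2 1.24.0 are named, without roles, in the submitters' processing notes; the genome build is not given in the sources used here. Its IDs and names, all 55536, match GENCODE M21 (GRCm38). The authors' expected counts were rounded to whole numbers; strandedness is not stated in the sources used here. The deposited TPM values served for levels per length and as an alternative for isoform ratios. The log2 fold change and p-value columns are the authors' own comparison, as deposited, and were used as an alternative.

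Genes passing filterByExpr of edgeR 4.0.16 (minimum count 10, minimum total 15; 14799 genes) were scaled with TMM factors (0.396 to 1.68) and compared as Sirt5-/- minus Sirt5+/+ with genotype alone, by the two-sided quasi-likelihood F test, adjusted by Benjamini-Hochberg over all genes, threshold 0.05. SE is the size of the log2 fold change over the square root of F. The floor of 3 counts equals 0.123 to 0.155 CPM of the unscaled total and covers counting error only. A parallel fit scaled libraries on 19 hepatocyte markers. Isoform ratios used log2 CPM with a prior count of 2 and the exact test over 20 assignments. Shared sequence is the percent of a gene's 31-base words found in other genes. R 4.3.3, limma 3.58.1, DESeq2 1.42.0 and Python 3.11.15 were used, and the fits were tested on simulated data.

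Alternatives were other size factors, library totals, other filters, DESeq2, limma-voom, the replicate number as a block, other thresholds, removal of mitochondrial genes or a mitochondrial covariate, the authors' values and leaving out libraries. The genes, lists, lengths and tests were chosen with earlier results of these data known. Genes with full statistics were, for complexes I, III, IV and V and the Ndufaf factors, the 3 lowest and 2 highest log2 fold changes with a mean of at least 5 CPM, all of complex II, Cyc1, the Uqcc factors, Cox4i1, Cox4i2, Ndufa4, Ndufa4l2, Cox7a1 and Cox7a2, any gene called higher, and the 2 smallest p of each further list; others were named after their values were seen. A gene that the counts include is not reported here.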

Additional observations from a re-analysis of the deposited data

How the results depend on the processing

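Deviations of same-numbered libraries from their genotype means correlated at -0.19, 0.11 and -0.2, and no library correlated best with its own number. Deviations from a genotype mean are tied to one another, so these correlations cannot decide whether the replicate numbers mark a pairing. With the replicate number as a block, 23 of the 45 calls over all genes described were made (complex I 10, complex IV 0, complex V 5, Ndufaf 1, Uqcc 0).

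Library totals in place of TMM factors gave 2 lower and 2 higher genes in all, with complex I 0, complex II 2, complex III 0, complex IV 0, complex V 0, Ndufaf 0, Uqcc 0 and the length classes 0, 1 and 1 from the shortest to the longest. The medians were then -0.16 over all, -0.06 in complex I, -1.26 in complex II, -0.34 in complex III, -0.1 in complex IV, -0.29 in complex V, -0.05 in Ndufaf and 0.48 in Uqcc. Signs were followed for the 38 genes named by rule only; those of the other genes were not followed. Of the 38, those that turned positive with library totals were Ndufaf2 (0.19), Ndufaf7 (0.23), Uqcc2 (0.87), Uqcc3 (0.48), Ndufb4c (0.59), Ndufc2 (0.54), Uqcrb (0.37), Cox7b (0.32), Atp5e (0.36) and Atp5j (0.49). The median of all genes moved with that scaling, which shows why; the causes of the other changes below were not tested.

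Upper-quartile factors gave 1 higher gene, 2 lower genes in complex IV and 0 in Uqcc, with medians of -0.63 over all, -0.74 in complex III, -0.62 in complex IV and -0.44 in Ndufaf, and positive values for Uqcc2 (0.16) and Ndufc2 (0.02). Without a filter complex IV had 1 lower gene. limma-voom gave 2 higher genes. Mitochondrial share as a covariate gave 1 higher gene, and 8 lower genes in complex III and 8 in complex IV. Removal of mitochondrial genes and their copies left 0 in Uqcc. At an adjusted p under 0.01 there were 12 lower genes (complex I 7, complex II 2, complex III 2, complex IV 0, complex V 0, Ndufaf 1, Uqcc 0), and at 0.1 there was 1 higher gene. Uqcc2 was also positive without a filter (0.03), with the stricter filter (0.04), limma-voom (0.18), the block (0.14) and removal of mitochondrial genes (0.03).

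Without both mitochondria-rich libraries, 47 genes were lower and 1 higher. The median was -0.64 in complex IV and -0.71 in Ndufaf. Of the 38 genes named by rule, Uqcc2 (0.47), Ndufb4c (0.18), Uqcrb (0.14) and Atp5j (0.14) turned positive and Ndufc2 was at 0. Relative to the hepatocyte markers, 1 gene was then lower and the median was 1.39.

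With each library left out in turn, the number lower ran from 12 to 50 over all genes described, 5 to 19 in complex I, 2 to 4 in complex II, 3 to 6 in complex III, 0 to 6 in complex IV, 0 to 10 in complex V, 1 to 4 in Ndufaf and 0 to 1 in Uqcc, and the number higher from 0 to 1. The length classes ran from 1 to 12, 4 to 21 and 7 to 17. Medians ran from -1.1 to -0.91 in complex III, -0.91 to -0.62 in complex IV and -0.58 to 0.02 in Uqcc. Relative to the markers, 16 to 60 were higher and 0 to 1 lower. Among mitochondrially encoded subunits 0 to 9 were higher and the median ran from -1.77 to 2.2; it was 0.4 with library totals and 0.85 with the block. Ratios ran from -0.25 to 2.2 for Cox6a2 over Cox6a1, -0.31 to 0.42 for Cox7a2l over Cox7a2 and -0.76 to 0.84 for Cox8b over Cox8a, the first and the last set by the prior in libraries at 0. With library totals, chosen after seeing the data, Cox4i2 over Cox4i1 differed by 2.93, against 3.44 with TMM factors, both resting on the prior in Sirt5+/+ replicate 3. Of the 38 genes, those that changed sign were Uqcc2 -0.37 to 0.55, Uqcc3 -0.58 to 0.02, Ndufb4c -0.59 to 0.33, Uqcrb -0.91 to 0.27 and Atp5j -0.69 to 0.33.

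Over the 38 named genes and their alternatives, 529 results kept direction and side of the threshold, 114 lost the call, 10 gained it and 29 changed sign. All 38 kept both with DESeq2 and in the authors' deposited table. With 3 libraries a genotype, of which 1 in each is rich in mitochondrial reads, depth left for nuclear genes and the spread between libraries limit what can be called.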
